A study of Mus musculus with 6 samples.

Results

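The anti-apoptotic BCL2 family was examined as 7 genes, Bcl2, Bcl2l1, Bcl2l2, Mcl1, Bcl2a1a, Bcl2a1b and Bcl2a1d, taken by gene symbol from count tables that list 24015 genes, and all 7 were found. Stem and progenitor cells of MLL-AF9 acute myeloid leukaemia had been sorted from mice for RNA sequencing. The LSPCT group (3 libraries) came from tamoxifen-treated mice and the LSPC group (3 libraries) from untreated mice, each with fully developed disease. Both groups descended from marrow progenitors (lineage-negative and Kit-positive) of NIKERT2 mice, which carry Rosa-CreERT2 and a Rosa-loxp-STOP-loxp-NIK allele, so that tamoxifen lets Cre remove the stop and NIK be expressed. Mouse age, the tamoxifen dose and schedule, the sort gate and the number of leukaemias behind the libraries are not stated. Tamoxifen was given to the LSPCT group alone, so effects of the drug, of Cre activity and of NIK cannot be told apart.

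Proteins of this family hold back mitochondrial apoptosis. They bind BH3-only proteins, which sense stress and growth factor loss, and the pore-forming effectors BAX and BAK, and so keep the outer mitochondrial membrane closed. BCL2 is the target of the drug venetoclax, which is used in human acute myeloid leukaemia. MCL1 is a short-lived protein on which mouse haematopoietic stem cells and many leukaemias depend, and BCL2A1, also called A1, is a known NF-kB target that is high in neutrophils and activated macrophages. NIK is the kinase that starts noncanonical NF-kB signalling.

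The mouse has several near-identical copies of the A1 gene, and the counts of these copies are only as separate as their sequences. In GENCODE M21 on GRCm38, whereas counting used mm9, Bcl2a1d lies on the minus strand at chr9:88723285-88731914, Bcl2a1a on the plus strand at chr9:88956900-88962419 and Bcl2a1b on the plus strand at chr9:89199209-89207827. Their coding sequences have the same length, 519 bases, and differ at 11 bases between Bcl2a1a and Bcl2a1b (97.9% identity), at 7 between Bcl2a1a and Bcl2a1d (98.7%) and at 6 between Bcl2a1b and Bcl2a1d (98.8%). The 3 copies are not all alike at 12 positions. Of these, 7 lie in coding bases 1 to 104, shown here 5′ to 3′ because the stretch holds most of the bases that separate the copies, with capitals at the positions that are not alike. Between the capitals the copies are identical, so only a read that covers a distinguishing base can be assigned.
Bcl2a1a: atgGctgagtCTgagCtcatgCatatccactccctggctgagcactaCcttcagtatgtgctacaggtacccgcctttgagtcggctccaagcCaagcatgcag
Bcl2a1b: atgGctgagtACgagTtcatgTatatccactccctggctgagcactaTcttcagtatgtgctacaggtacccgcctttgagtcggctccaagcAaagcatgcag
Bcl2a1d: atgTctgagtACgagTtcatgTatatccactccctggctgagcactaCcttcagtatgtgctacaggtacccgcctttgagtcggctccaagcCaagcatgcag
Another 4 of the positions lie in coding bases 302 to 417, shown in the same way.
Bcl2a1a: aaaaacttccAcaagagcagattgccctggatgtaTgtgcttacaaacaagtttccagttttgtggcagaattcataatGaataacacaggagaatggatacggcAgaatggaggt
Bcl2a1b: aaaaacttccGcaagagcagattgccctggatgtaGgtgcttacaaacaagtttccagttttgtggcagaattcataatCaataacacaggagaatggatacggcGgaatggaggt
Bcl2a1d: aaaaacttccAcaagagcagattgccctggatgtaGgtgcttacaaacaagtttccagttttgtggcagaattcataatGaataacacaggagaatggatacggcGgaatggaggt
Among all stretches of 50 bases in each transcript, 31.0% of those of Bcl2a1a, 42.4% of those of Bcl2a1b and 20.5% of those of Bcl2a1d occur in no other Bcl2a1 transcript, Bcl2a1c included. For stretches of 100 bases the shares were 56.5%, 68.9% and 45.3%. The read length and the treatment of reads with several positions are not given, so the counts of single copies are uncertain, and the summed counts of the copies are given beside them.

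Total counts were 19999071 to 22454753 in the LSPCT libraries and 20410001 to 26773176 in the LSPC libraries, and a count of 0 leaves room for up to 3 counts, or 0.133 to 0.15 CPM in LSPCT and 0.111 to 0.149 CPM in LSPC. Levels are CPM, counts scaled to library size with TMM factors, and intervals on counts cover counting error only. Map3k14, which encodes NIK, was at 129.9, 190.6 and 159.5 CPM in LSPCT and at 26.5, 24.2 and 28.8 CPM in LSPC, in the direction of the labels, although counts do not separate the transgene from the endogenous gene. Kit (126 to 194 CPM in LSPCT, 117 to 137 CPM in LSPC), Cd34 and Meis1, markers of the labelled progenitors, were present in each library, and of 6 such markers Mpo and Fcgr3 fell and none rose. Mpo, the myeloperoxidase gene of granulocyte and monocyte progenitors, had 372, 112 and 75.7 CPM in LSPCT, against 4080, 4028 and 2940 CPM in LSPC (19.7-fold lower, edgeR adjusted p = 0.00213). The 6 markers summed to 871 to 1451 CPM in LSPCT and 3798 to 4978 CPM in LSPC, and Mpo made up most of the LSPC sum. Kit (log2 0.25), Cd34 (0.40), Hoxa9 (-0.02) and Meis1 (-0.10) overlapped between the groups and did not pass (edgeR adjusted p 0.0921 to 0.983). Of these, Cd34 alone had an unadjusted edgeR p under 0.05, as higher. The part of the marker shift in the members' differences was not tested. The labels name no separate mice or cultures behind the replicates, so the p-values reflect sample-to-sample spread that may be technical. In bulk RNA, fewer cells of a type and less RNA per cell cannot be told apart.

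Bcl2 fell and Bcl2a1a rose in LSPCT, whereas Mcl1, Bcl2l1, Bcl2l2 and Bcl2a1b did not pass. Of the 7 members, 6 had enough counts to be tested, with 1 that rose and 1 that fell (edgeR quasi-likelihood test, two-sided, adjusted p under 0.05 over all 12729 genes tested). Over all genes tested, 17.2% passed, 8.96% as higher and 8.24% as lower. The median log2 fold change was -0.06 over the 6 tested members and -0.0025 over all genes tested, with members spread from -1.72 to 3.55. LSPCT and LSPC libraries did not overlap for 3 of the 6 (Bcl2, Mcl1 and Bcl2a1a), beside 37.7% of all genes tested.

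**Figure D1:**
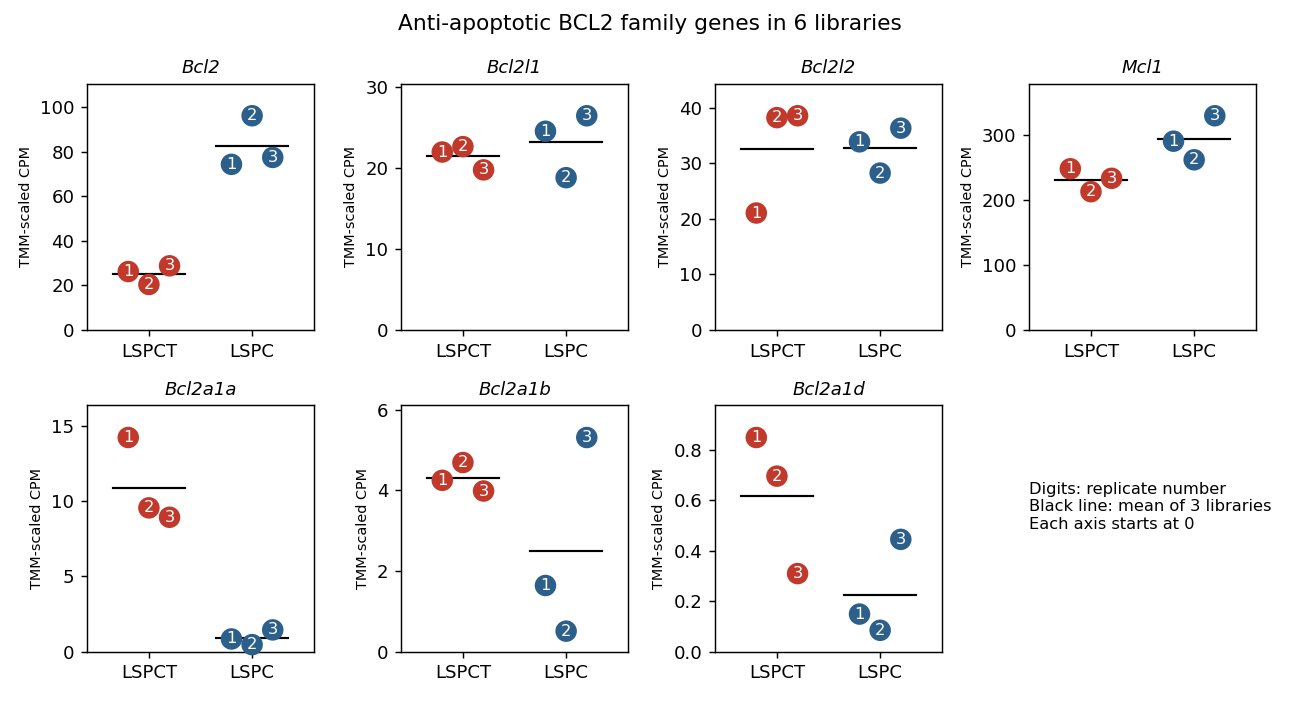
Levels of the 7 genes in each library, in TMM-scaled CPM on axes that start at 0, with LSPCT on the left and LSPC on the right of each panel; digits are replicate numbers and the line is the mean of 3 libraries. Bcl2 stands at 20.4 to 28.8 CPM in LSPCT and at 74.4 to 96.3 CPM in LSPC, and Bcl2a1a at 8.94 to 14.2 CPM in LSPCT and 0.466 to 1.45 CPM in LSPC.

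Bcl2, the founding member of the family, had 26.2, 20.4 and 28.8 CPM in LSPCT replicates 1 to 3, against 74.4, 96.3 and 77.5 CPM in LSPC replicates 1 to 3. Every LSPCT library was below every LSPC library. Bcl2 averaged 25.2 ± 4.29 CPM in LSPCT and 82.7 ± 11.8 CPM in LSPC (SD, n = 3 each), a 3.29-fold lower level in LSPCT (log2 fold change -1.72, standard error (SE) 0.15, 95% interval -2.07 to -1.36, edgeR adjusted p = 0.000308). The call held in each of 15 other settings, with log2 fold changes of -1.82 to -1.59 and adjusted p of 3.43e-24 to 0.0018. An antisense gene, D630008O14Rik, overlaps Bcl2 in GENCODE. The strand setting of the counts is not given, so reads of the antisense gene may be counted in Bcl2 if exons overlap. Gm37053 and the microRNA gene Mir3473f (4 to 22 counts) overlap Bcl2 on the same strand. Here and below, overlaps were taken over whole gene spans, and whether exons are shared was not examined.

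Mcl1 had 247.9, 212.7 and 233 CPM in LSPCT, against 290.3, 261.7 and 329 CPM in LSPC. All LSPCT libraries were below all LSPC libraries, but the gap between the nearest ones was small beside the spread within LSPC. Mcl1 averaged 231 ± 17.7 CPM in LSPCT and 294 ± 34.0 CPM in LSPC (SD, n = 3 each; log2 -0.35, SE 0.11, 95% interval -0.59 to -0.10), and missed the threshold (edgeR adjusted p = 0.0619). It passed with DESeq2 (adjusted p = 0.0209) and without LSPCT replicate 1 (log2 -0.39, edgeR adjusted p = 0.0338), and the adjusted p ran from 0.0209 to 1.0 over the 15 settings.

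Bcl2l1, whose main product BCL-XL protects red cell precursors and platelets, had 22.0, 22.7 and 19.8 CPM in LSPCT and 24.6, 18.8 and 26.5 CPM in LSPC. The groups overlapped (log2 -0.12, SE 0.15, edgeR adjusted p = 0.645), and the 95% interval of the log2 difference was -0.46 to 0.23. Splice forms of Bcl2l1, one of which promotes death, are counted together here. Bcl2l2, which encodes BCL-W, had 21.0, 38.2 and 38.5 CPM in LSPCT and 33.9, 28.2 and 36.3 CPM in LSPC. LSPCT replicate 1 was the lowest of the 6 libraries and the other LSPCT libraries were the highest. The log2 difference of -0.01 had a 95% interval of -0.52 to 0.51 (edgeR adjusted p = 0.986), and without LSPCT replicate 1 it was 0.23 (edgeR adjusted p = 0.192). A read-through gene, Gm20521, overlaps Bcl2l2 on the same strand in GENCODE but is not among the genes counted. Reads shared with it may be lost or added.

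Bcl2a1a had 285, 206 and 202 counts in LSPCT, against 17, 11 and 39 counts in LSPC, or 14.2, 9.56 and 8.94 CPM in LSPCT and 0.845, 0.466 and 1.45 CPM in LSPC. The LSPCT libraries were all above the LSPC libraries, and LSPCT replicate 1 was the highest. The gene averaged 10.9 ± 2.90 CPM in LSPCT and 0.92 ± 0.495 CPM in LSPC (SD, n = 3 each), an 11.7-fold rise (log2 3.55, SE 0.42, 95% interval 2.59 to 4.51, edgeR adjusted p = 0.00112). The rise passed in each of the 15 other settings, with log2 fold changes of 3.22 to 4.07 and adjusted p of 1.42e-18 to 0.00998.

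Bcl2a1b did not show the same separation. It had 85, 101 and 90 counts in LSPCT, against 33, 12 and 143 counts in LSPC, or 4.25, 4.69 and 3.98 CPM in LSPCT and 1.64, 0.509 and 5.31 CPM in LSPC. LSPC replicate 3 was above every LSPCT library, and the other LSPC libraries were below them. The log2 difference of 0.78 (SE 0.67, 95% interval -0.77 to 2.33) did not pass (edgeR adjusted p = 0.479). Without LSPC replicate 3 it was 2.02 and passed (edgeR adjusted p = 0.0457, in a range of 0.0457 to 1.0 over the 15 settings), and without LSPC replicate 2 it was 0.29 (edgeR adjusted p = 0.756). Bcl2a1d had 17, 15 and 7 counts in LSPCT, against 3, 2 and 12 counts in LSPC. It was too low to be tested, and its libraries overlapped between groups. Bcl2a1c, a shortened copy that was not a member, had 3, 4 and 6 counts in LSPCT and 1, 0 and 7 counts in LSPC. In GENCODE a protein-coding gene, Gm29094, overlaps Bcl2a1b on the same strand, and an antisense gene, Gm10634, overlaps Bcl2a1d. Neither is among the genes counted, and reads of them may be counted in the copies.

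The summed counts of Bcl2a1a, Bcl2a1b and Bcl2a1d were 387, 322 and 299 in LSPCT, against 53, 25 and 194 in LSPC, or 19.3, 14.9 and 13.2 CPM in LSPCT and 2.63, 1.06 and 7.20 CPM in LSPC. The groups did not overlap, and the LSPC libraries were further apart from each other than the LSPCT libraries. The sum averaged 15.8 ± 3.15 CPM in LSPCT and 3.63 ± 3.19 CPM in LSPC (SD, n = 3 each) and passed as 4.32-fold higher in LSPCT (log2 2.11, SE 0.57, edgeR adjusted p = 0.0393). The call was lost without LSPC replicate 1 (edgeR adjusted p = 0.144), LSPCT replicate 2 (0.084) or LSPCT replicate 3 (0.0802) and when tested against a minimum of 1.5-fold (0.132), and the log2 fold change was 3.10 without LSPC replicate 3.

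The copies took unlike parts of the Bcl2a1 counts. Bcl2a1a made up 73.6%, 64.0% and 67.6% of the summed counts in LSPCT, against 32.1%, 44.0% and 20.1% in LSPC, so the groups did not overlap. Exact 95% binomial intervals were 69.0 to 78.0, 58.5 to 69.2 and 61.9 to 72.8% in LSPCT and 19.9 to 46.3, 24.4 to 65.1 and 14.7 to 26.4% in LSPC. The interval of LSPC replicate 2, which rests on 25 counts, reached into those of LSPCT replicates 2 and 3. Bcl2a1b made up 22.0 to 31.4% in LSPCT and 48.0 to 73.7% in LSPC.

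**Figure D2:**
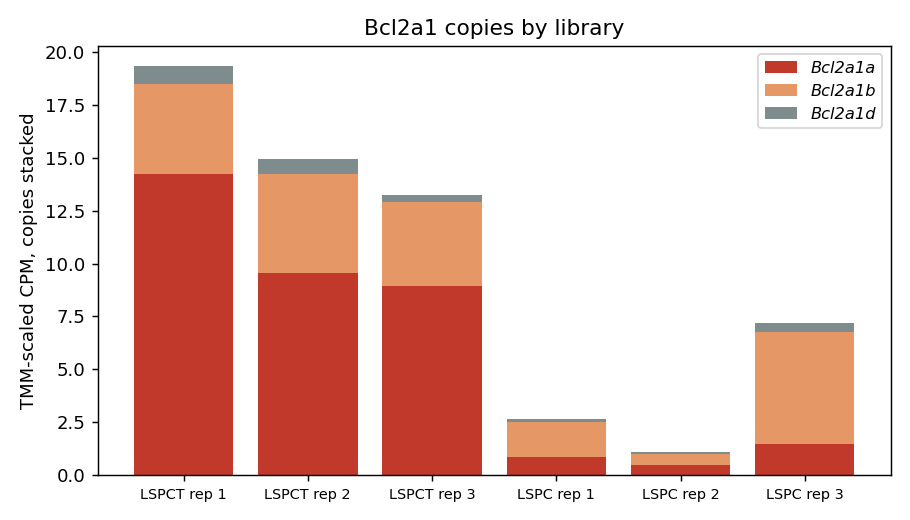
Stacked TMM-scaled CPM of Bcl2a1a, Bcl2a1b and Bcl2a1d in each library, from 0, LSPCT libraries on the left and LSPC libraries on the right. Bcl2a1a is the largest part of each LSPCT bar, at 8.94 to 14.2 CPM, and Bcl2a1b the largest part of each LSPC bar, at 0.509 to 5.31 CPM. In LSPC replicate 2 that order rests on 12 counts against 11 for Bcl2a1a, so it is not resolved there.

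Markers of mature myeloid cells, in which A1 is also expressed, varied between these libraries. Of 8 listed neutrophil markers, Ly6g was not among the genes counted. The other 7 (S100a8, S100a9, Camp, Ltf, Ngp, Retnlg and Mmp8) summed to 171, 471 and 499 CPM in LSPCT, against 261, 10.7 and 2028 CPM in LSPC. None of the 7 passed (edgeR adjusted p 0.413 to 0.731). LSPC replicate 3 had the highest neutrophil sum and the highest Bcl2a1b level of the LSPC libraries, and LSPC replicate 2 the lowest of both. Bcl2a1a and Bcl2a1d ranked the LSPC libraries in the same order. The match did not hold in LSPCT, where replicate 3 had the highest neutrophil sum (499 CPM) and the lowest Bcl2a1b level (3.98 CPM). The 7 macrophage markers (C1qa, C1qb, C1qc, Mrc1, Fcgr1, Csf1r and Cd68) summed to 640.4, 449 and 466 CPM in LSPCT, against 236, 248 and 331 CPM in LSPC. Of these 7, 6 rose and none passed as lower. Csf1r and Cd68 together made up most of each sum. C1qa was at 92.6, 8.03 and 14.3 CPM in LSPCT and at 3.63, 0.339 and 2.0 CPM in LSPC. LSPCT replicate 1, which had the most Bcl2a1a, was also the highest library for C1qa, C1qb, C1qc, Mrc1 and Fcgr1, and these 5 genes were above every LSPC library in the other LSPCT libraries too. Csf1r (257, 318 and 299 CPM in LSPCT, 113, 130 and 203 CPM in LSPC) and Cd68 (97.5, 101 and 105 CPM in LSPCT, 113, 117 and 121 CPM in LSPC) were instead lowest in replicate 1 among the LSPCT libraries. Without LSPCT replicate 1 the log2 fold change of Bcl2a1a was 3.31 (edgeR adjusted p = 0.000714). The part of mature myeloid cells in the Bcl2a1 counts was not tested. The 4 eosinophil and mast cell markers summed to 91.2, 18.3 and 26.7 CPM in LSPCT and 24.8, 19.8 and 27.5 CPM in LSPC, with LSPCT replicate 1 apart from the other libraries through Prg2 (66.5 CPM, against 3.32 to 12 CPM in the others). Neither of the 2 that were tested, Prg2 and Cpa3, passed with edgeR, and at an unadjusted p under 0.05 Cpa3 alone was higher. T cell markers summed to 28.6 to 79.5 CPM in LSPCT and 18.2 to 22.0 CPM in LSPC, with 1 of 5 tested, Lck, higher. Lck made up most of each sum. Cd3e was higher at an unadjusted edgeR p of 0.0104 (adjusted p = 0.0569), and its groups did not overlap. Of the B cell markers Pax5 had no count and Cd79b made up most of the sum (27.0 to 48.7 CPM in LSPCT, 40.7 to 45.5 CPM in LSPC).

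**Figure D3:**
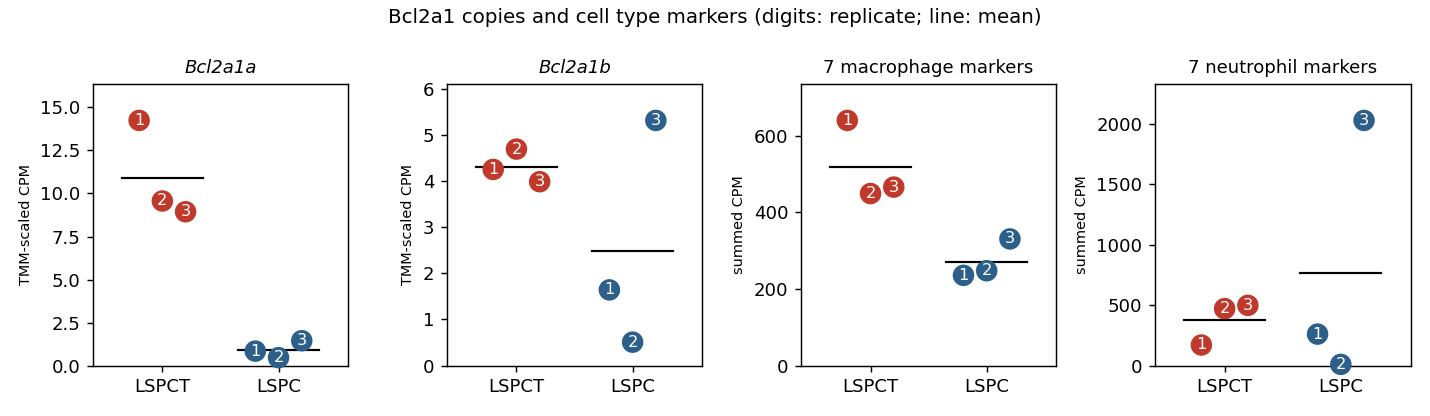
Levels of Bcl2a1a and Bcl2a1b and the summed levels of 7 macrophage and 7 neutrophil markers in each library, in CPM from 0, LSPCT left and LSPC right in each panel; digits are replicate numbers and lines are means of 3. LSPC replicate 3 is highest among the LSPC libraries in all 4 panels, with a neutrophil sum of 2028 CPM. Csf1r and Cd68 together make up most of each macrophage sum.

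Counts divided by exon length put the members in a different order in the 2 groups. Exon lengths came from GENCODE M21 and not from the annotation that was counted, and reads shared among the Bcl2a1 copies may be missing from their levels, so the order is approximate. In LSPCT the order was Mcl1 (67.7 ± 5.18 CPM per kb), Bcl2a1a (13.3 ± 3.54), Bcl2l2 (7.31 ± 2.24), Bcl2a1b (5.27 ± 0.437), Bcl2l1 (4.68 ± 0.328), Bcl2 (2.75 ± 0.469) and Bcl2a1d (0.717 ± 0.322), as mean ± SD over 3 libraries. Library ranges overlapped between Bcl2l2 and Bcl2a1b and between Bcl2a1b and Bcl2l1, and not between the other neighbours. In LSPC the order was Mcl1 (86.0 ± 9.95 CPM per kb), Bcl2 (9.03 ± 1.29), Bcl2l2 (7.35 ± 0.929), Bcl2l1 (5.08 ± 0.869), Bcl2a1b (3.04 ± 3.07), Bcl2a1a (1.12 ± 0.605) and Bcl2a1d (0.262 ± 0.223). There the ranges overlapped between Bcl2 and Bcl2l2, between Bcl2l1 and Bcl2a1b and between Bcl2a1b and Bcl2a1a. Mcl1 was thus the most abundant member per kb in every library, and Bcl2 stood below Bcl2l2 and Bcl2l1 in each LSPCT library and above Bcl2l1 in each LSPC library.

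Ratios within a library do not depend on the scaling between libraries. Bcl2 counts were 0.106, 0.0961 and 0.124 times those of Mcl1 in LSPCT, against 0.256, 0.368 and 0.235 times in LSPC. The mean log2 ratio was -3.21 ± 0.183 in LSPCT and -1.83 ± 0.342 in LSPC (SD, n = 3 each), a difference of -1.38. Bcl2 counts were 1.19, 0.902 and 1.46 times those of Bcl2l1 in LSPCT, against 3.03, 5.11 and 2.93 times in LSPC, a log2 difference of -1.62. To the summed Bcl2a1 counts, Bcl2 stood at 1.36, 1.37 and 2.18 in LSPCT, against 28.0, 89.1 and 10.7 in LSPC, a log2 difference of -4.23. For all 3 ratios every LSPCT library was below every LSPC library. All 3 share the Bcl2 counts, which were themselves lower in LSPCT, so they are not separate results. The exact two-sided permutation p was 0.1 for each, also after adjustment over the 3, which is the smallest value that 3 against 3 libraries can give.

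**Figure D4:**
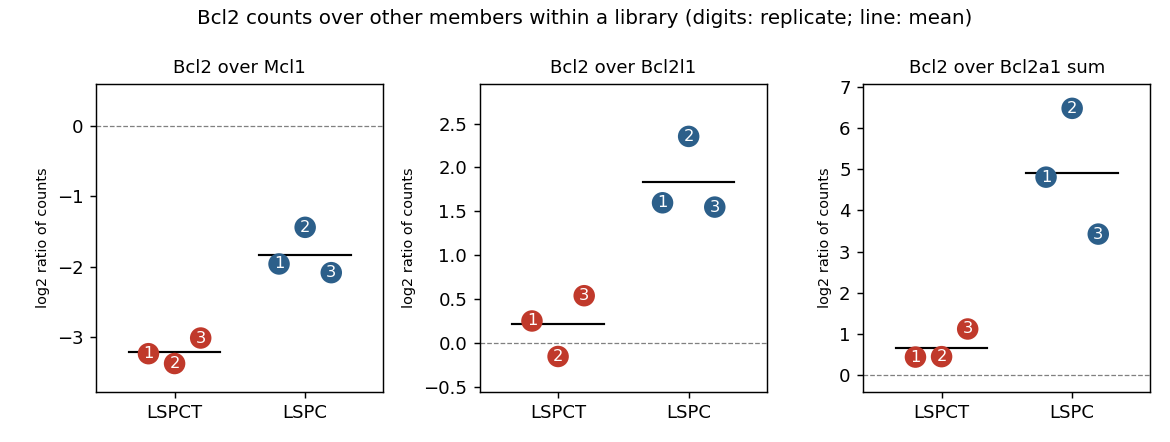
Log2 ratios of Bcl2 counts to those of Mcl1, Bcl2l1 and the summed Bcl2a1 copies within each library, LSPCT left and LSPC right; digits are replicate numbers, lines are means of 3 and the dashed line marks equal counts. The groups do not overlap in any panel, with mean differences of -1.38, -1.62 and -4.23.

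The BH3-only genes, whose products the members bind, were tested for 7 of 8 listed genes, and 3 fell while none rose. Over all genes tested, 8.24% fell and 8.96% rose. The median log2 fold change of the 7 was -0.53, beside -0.0025 over all genes tested. It is the value of Bmf, which did not pass, overlapped between the groups and turned to 0.17 without LSPC replicate 3. Bid, which links death receptors to mitochondria, had 61.8, 55.0 and 55.6 CPM in LSPCT, against 110.5, 124 and 106 CPM in LSPC, and fell 1.98-fold (log2 -0.98, SE 0.10, edgeR adjusted p = 0.000488). Bcl2l11, which encodes BIM, the main BH3-only protein of blood cell homeostasis, had 15.6, 16.5 and 15.4 CPM in LSPCT, against 27.6, 21.3 and 27.5 CPM in LSPC. It fell 1.61-fold (log2 -0.68, SE 0.14, edgeR adjusted p = 0.0126), and the call was lost without LSPC replicate 1 (edgeR adjusted p = 0.0695) and when tested against a minimum of 1.5-fold (0.668). In neither gene did the groups overlap.

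Bik had 4, 0 and 0 counts in LSPCT, against 14, 28 and 19 counts in LSPC, and its fall (edgeR adjusted p = 0.0332) was lost when any single library other than LSPCT replicate 1 was left out (edgeR adjusted p = 0.066 to 0.111), and when tested against a minimum of 1.5-fold (0.0885). Pmaip1, which encodes NOXA, a partner of MCL1 and A1, had 138, 44.3 and 49.7 CPM in LSPCT, against 61.2, 68.2 and 73.8 CPM in LSPC. LSPCT replicate 1 was above every LSPC library and the other LSPCT libraries were below them, so the log2 difference of 0.19 (edgeR adjusted p = 0.78) was -0.52 without that replicate (edgeR adjusted p = 0.00927). Bbc3, which encodes the p53 target PUMA (log2 -0.38, edgeR adjusted p = 0.224), Bad (-0.24, edgeR adjusted p = 0.142) and Bmf (-0.53, edgeR adjusted p = 0.489) did not pass. Of these, Bad alone was lower at an unadjusted edgeR p under 0.05 (0.0432), and its groups did not overlap. Hrk had 3 counts over the 6 libraries and was not tested.

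None of the 3 effector genes passed with edgeR, and at an unadjusted p under 0.05 Bok alone was lower. Bax averaged 119 ± 13.0 CPM in LSPCT and 115 ± 10.7 CPM in LSPC (SD, n = 3 each), with a 95% interval of the log2 difference of -0.21 to 0.30 (edgeR adjusted p = 0.816). Bak1 averaged 163 ± 14.0 CPM in LSPCT and 156 ± 0.787 CPM in LSPC (SD, n = 3 each; interval -0.14 to 0.27, edgeR adjusted p = 0.674). Bok, an effector-like gene, had 11, 8 and 1 counts in LSPCT and 18, 34 and 41 counts in LSPC (log2 -2.01, edgeR adjusted p = 0.0776), and passed without LSPCT replicate 1 (edgeR adjusted p = 0.031). Of 6 other BCL2-like genes, Bcl2l12, Bcl2l13 and Bcl2l14 were tested and none passed, with log2 differences of 0.02 to 0.43. At an unadjusted p under 0.05 none of these 3 passed either. Bcl2l10 had no count.

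Downstream of mitochondria, none of the 5 apoptosome and related genes described here passed with edgeR (median log2 -0.09), none had an unadjusted edgeR p under 0.05, and none passed after adjustment with DESeq2. Apaf1, which encodes the apoptosome core, had 110.3, 151.8 and 149.8 CPM in LSPCT, against 155, 159.7 and 165.7 CPM in LSPC (log2 -0.22, edgeR adjusted p = 0.281). Every LSPCT library was below every LSPC library. Its partner Casp9 (log2 0.04), the cytochrome c gene Cycs (-0.27), and Diablo (-0.09), whose product counters the inhibitor of apoptosis encoded by Xiap (0.18), overlapped between the groups (edgeR adjusted p 0.199 to 0.833). Without LSPCT replicate 1, Cycs passed as lower (edgeR adjusted p = 0.0191) and Xiap as higher (0.0396).

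Genes that act on the members were mixed. Of the enzymes that set MCL1 stability, the ubiquitin ligase genes Huwe1 (log2 0.05) and Fbxw7 (-0.26) and the deubiquitinase gene Usp9x (0.32) did not pass (edgeR adjusted p 0.165 to 0.804), and Usp9x passed as higher without LSPCT replicate 1 (edgeR adjusted p = 0.0119). Of 11 transcription factor genes listed as regulators of members, Nfkb2 and Relb rose, Mef2c fell and 8 did not pass (median log2 -0.06). Relb had 40.7, 51.2 and 42.3 CPM in LSPCT, against 2.93, 1.57 and 4.72 CPM in LSPC, and Nfkb2 had 377, 486 and 405 CPM in LSPCT, against 32.3, 33.4 and 45.1 CPM in LSPC. Rel, whose product binds the A1 promoter in mouse lymphocytes, was at 10.4, 15.0 and 13.7 CPM in LSPCT and 17.0, 14.7 and 19.8 CPM in LSPC, with overlapping groups (log2 -0.40, edgeR adjusted p = 0.191). Nfkb1, Rela, Stat3, Stat5a, Stat5b, Spi1 and Myb differed by -0.14 to 0.25 (edgeR adjusted p 0.275 to 0.681). Over the partner genes described here 6 of 32 tested passed (18.8%), close to the 17.2% of all genes tested. Without LSPCT replicate 1, 11 of 32 passed (34.4%, beside 25.1% of all genes), and without LSPC replicate 1, 4 of 33 did (12.1%, beside 7.83%). These counts moved in the same direction as those over all genes, though not in proportion.

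**Figure D5:**
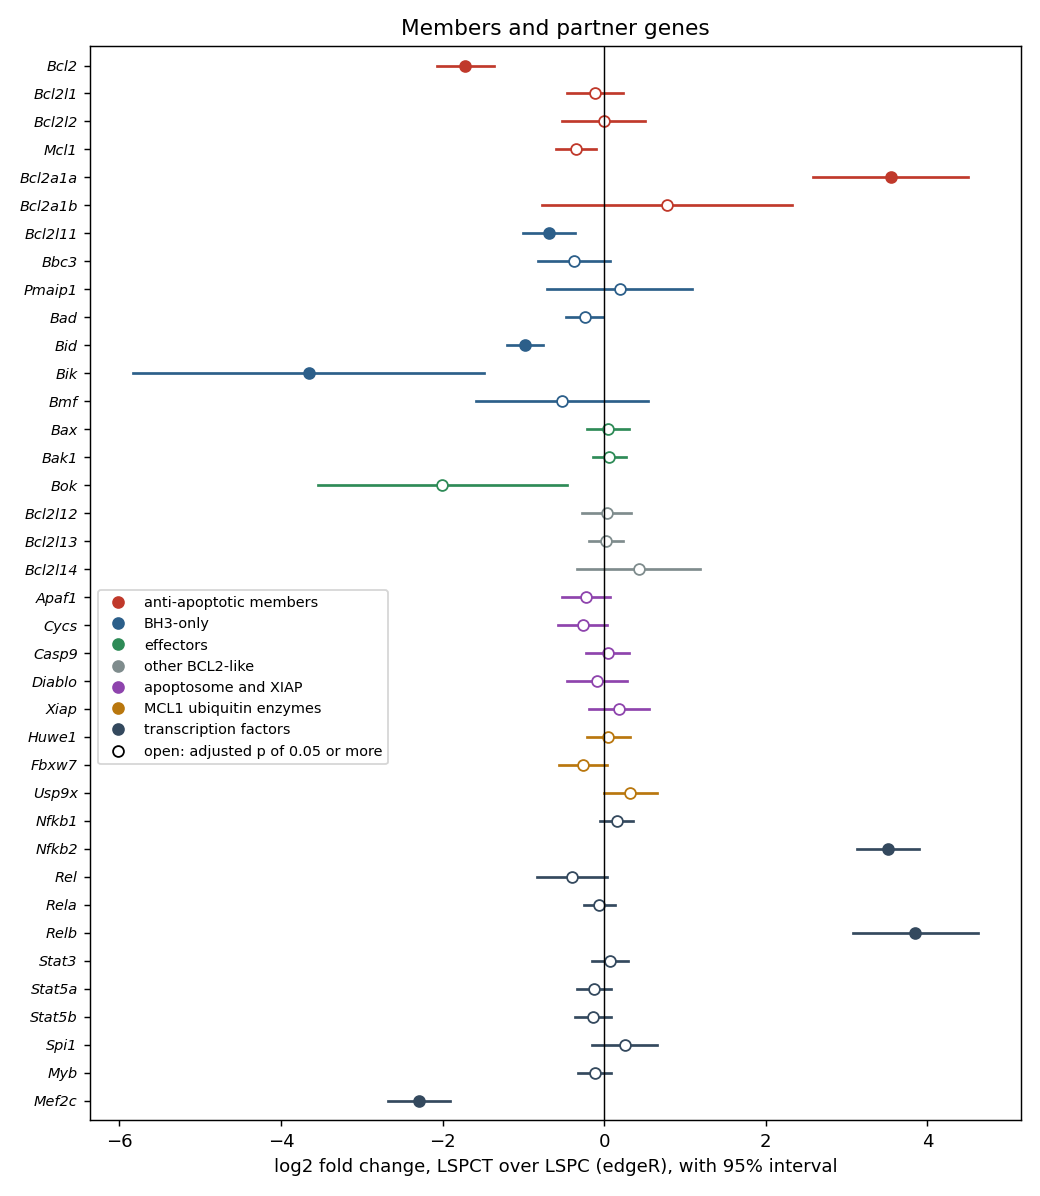
Log2 fold changes of LSPCT over LSPC with 95% intervals for the tested members (top) and the tested partner genes by list; filled points passed at an adjusted p under 0.05 and open points did not. Bcl2 at -1.72 and Bcl2a1a at 3.55 lie on opposite sides of 0, and Bax and Bak1 lie at 0.05 and 0.06.

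For each member that passed, the genes with the most similar levels over the 6 libraries were found by Pearson correlation of log2 CPM among 9325 tested genes of average log2 CPM of at least 3. For Bcl2 these were Golim4 (r = 0.997, log2 -0.37), Fndc3a (r = 0.997, log2 -0.33) and Lat2 (r = 0.997, log2 -1.27), each of which fell. For Bcl2a1a these were Trex1, an exonuclease gene (r = 0.999, log2 0.55), Sspo (r = 0.998, log2 7.08) and Fdft1, a cholesterol synthesis gene (r = 0.998, log2 0.35), of which Trex1 and Sspo rose. The 6 points fall in 2 groups of 3, and 284 genes for Bcl2 and 252 for Bcl2a1a had r above 0.95, so the values describe a shared group difference.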

How the data were processed

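RNA was sequenced from 3 LSPCT and 3 LSPC libraries, grouped by sample title. The deposited files hold the authors' raw counts, with 1 row for each gene symbol. The submitters' processing notes name FastQC, TopHat2 (version 2.1.0), featureCounts, DESeq2 and the build mm9, with no order. The annotation, strand setting and handling of reads with several positions are not stated.

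Counts were compared with edgeR 4.0.16 (R 4.3.3): TMM factors, filterByExpr (minimum count 10), and a two-sided quasi-likelihood F test on group alone. P-values were adjusted by Benjamini-Hochberg over the 12729 genes that were kept. Each SE was derived from the log2 fold change and its F value. Bcl2a1 copies were also summed before the fit. Simulated counts with known changes were used to try the fit.

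There were 15 alternative settings: RLE, upper quartile or no scaling factors, no filter, a filter at CPM above 1 in 3 libraries, limma voom (limma 3.58.1), DESeq2 1.42.0, a replicate block, glmTreat at 1.5-fold, and leaving out each of 6 libraries. Ratios used a prior count of 0.5. The members, partner lists, markers and tests were chosen with earlier results of these data known. A pair of apoptosome list genes are not reported here, and the list counts leave them out. The named genes are the members, all other tested partner genes, Map3k14 and the 3 genes most correlated with each member that passed; other genes were named after their values were seen. Coding sequences, positions and exon lengths are from GENCODE M21 (GRCm38), and stretches with differing bases were widened by 10 bases for printing.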

Additional observations from a re-analysis of the deposited data

How the results depend on the processing

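The number of members that passed was 2 to 3 over the 15 settings, with Mcl1 (DESeq2, and without LSPCT replicate 1) or Bcl2a1b (without LSPC replicate 3) as the third. Bcl2 and Bcl2a1a passed in all of them. The summed Bcl2a1 copies missed the threshold when tested against a minimum of 1.5-fold (log2 fold change 2.11) and without LSPC replicate 1, LSPCT replicate 2 or LSPCT replicate 3. Their log2 fold change ranged from 1.67 to 3.10 with single libraries left out. The number of partner genes that passed was 6, with 4 when tested against a minimum of 1.5-fold and 4 to 11 with single libraries left out, while the genes called over the whole table numbered 2189, 647 and 1029 to 3249. Bcl2l2, which never passed, turned to 0.021 with upper quartile factors, 0.00067 without scaling factors and 0.0045 with the stricter filter, and ran from -0.14 to 0.23 with single libraries left out; the cause of these changes was not tested. The differences in the ratios of Bcl2 to Mcl1, Bcl2l1 and summed Bcl2a1 kept their sign in each of 7 settings. Leaving out 1 library could not have changed it, because every LSPCT library was below every LSPC library in each ratio. Same-numbered libraries had correlations of 0.118, -0.115 and 0.106 between their deviations from the group means, so the numbers were not taken as pairs. With the replicate block 2 members and 5 partner genes passed, Bik being lost (adjusted p = 0.0589), and over all genes 1792 did, beside 2189 without it. Low counts limit Bcl2a1d, Bik and Bok.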
